A study of Homo sapiens with 6 samples.

Results

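The genes described here encode 10 factors that transcribe and process histone messenger RNA, measured in U2OS cells in which poly(ADP-ribose) glycohydrolase (PARG) was inhibited. The 10 genes were picked by function, as factors of the histone locus body, of stem-loop binding and of the 3′ end cleavage guided by the U7 small nuclear RNA. This choice, and that of the related gene lists below, was made with earlier results of these data known. All 10 were found among the 60708 gene identifiers of the count files. U2OS is an established human osteosarcoma line. All library titles also carry the tag CC, which the titles do not explain. Control cells received the solvent DMSO (n = 3 libraries). Treated cells, called PARGi here, were given PDD00017273 at 25 µM (n = 3 libraries). This compound blocks PARG, which takes poly(ADP-ribose) chains apart. The treatment lasted 4 days, and total RNA was sequenced with a strand-specific kit. Whether RNA with a poly(A) tail was selected for the libraries is not reported here. The labels number the 3 libraries of a group as replicates and do not say whether they came from separate cultures, so p-values measure only the spread between these libraries, which may be technical.

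Replication-dependent histone genes lack introns, and their messenger RNAs are the main animal transcripts that end without a poly(A) tail. They are transcribed in the histone locus body during S phase, and the 3′ end ends in a short stem-loop instead of a tail. SLBP binds that stem-loop, the U7 ribonucleoprotein pairs with the sequence downstream of it, and a cleavage complex shared with ordinary polyadenylation cuts between them. When processing fails, or when some of these genes are expressed in cells that are not dividing, the polymerase reads past the stem-loop to a later poly(A) site.

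The stem-loop is shown for 6 histone genes because it is the element that SLBP and ERI1 bind. Each line gives 26 bases of the GENCODE 29 transcript, 5′ to 3′ with T for U, and the 16 bases of the stem-loop are in capitals.
H2AC6 (GRCh38, chr6:26124664-26124689, plus strand): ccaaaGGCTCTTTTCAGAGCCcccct
H2BC21 (chr1:149886183-149886208, minus strand): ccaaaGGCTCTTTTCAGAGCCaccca
H2BC5 (chr6:26158582-26158607, plus strand): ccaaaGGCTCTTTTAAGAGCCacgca
H4C8 (chr6:26285126-26285151, minus strand): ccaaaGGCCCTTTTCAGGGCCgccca
H3C10 (chr6:27810511-27810536, plus strand): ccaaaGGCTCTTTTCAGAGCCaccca
H2AC11 (chr6:27133510-27133535, plus strand): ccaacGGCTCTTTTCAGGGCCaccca
The 16-base histone stem-loop consensus, with any base allowed at its variable positions and searched on the transcript strand, was found in 26 of 58 histone genes that have a transcript in GENCODE 29. It occurred in 0.0334% of the 206694 transcripts of that release. Several annotated histone transcripts stop at the end of the coding part and cannot hold the stem-loop, so a missing match says nothing about the gene.

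The other RNA of the reaction is U7, which LSM10 and LSM11 hold in a ring of Sm proteins. It is shown because the binding site of that ring distinguishes the U7 particle from those of the spliceosome. The RNU7-1 gene spans 63 bases (chr12:6943816-6943878, plus strand, exonic), and the Sm-type site, bases 21 to 31 counted from the 5′ end, is in capitals.
RNU7-1: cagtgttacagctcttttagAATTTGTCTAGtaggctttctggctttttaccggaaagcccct
RNU7-1 was listed at 0 in all 6 libraries. Of its 63 bases, 62 lie inside an annotated exon of C12orf57 on the same strand, so reads there cannot be assigned to one gene and the 0 is no measurement of U7.

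All 10 factor genes had enough counts for a test. In PARGi, 3 were higher: ERI1, LSM10 and ZNF473. The other 7 were not called. The count called lower was 0 by edgeR with TMM scaling and by DESeq2, and 1 by edgeR with upper-quartile scaling. That gene, CASP8AP2, was also lower at an unadjusted p under 0.05 with TMM scaling. Their log2 fold changes ran from -0.082 for CASP8AP2 to 0.16 for ERI1, with a median of 0.057 against -0.0070 over all tested genes. The test was edgeR's quasi-likelihood test over 20409 genes with Benjamini-Hochberg adjustment, and a gene is called when its adjusted p is below 0.05. In that test 24.3% of all genes were called, 13.2% as higher and 11% as lower. The 3 of 10 factors, or 30%, thus lie near the share of all genes, and the count shows nothing particular to them. All 3 PARGi libraries lay outside the DMSO range on one side for 6 of the 10 factors, against 38% of all tested genes. In 5 factors they lay above it (19.8% of all genes) and in 1 below it (18.2%). Only the call of ERI1 held in all 14 alternative analyses. The count of factors called higher fell to 1 without DMSO replicate 1, without PARGi replicate 1 or without PARGi replicate 2, and also with upper-quartile scaling.

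**Figure D1:**
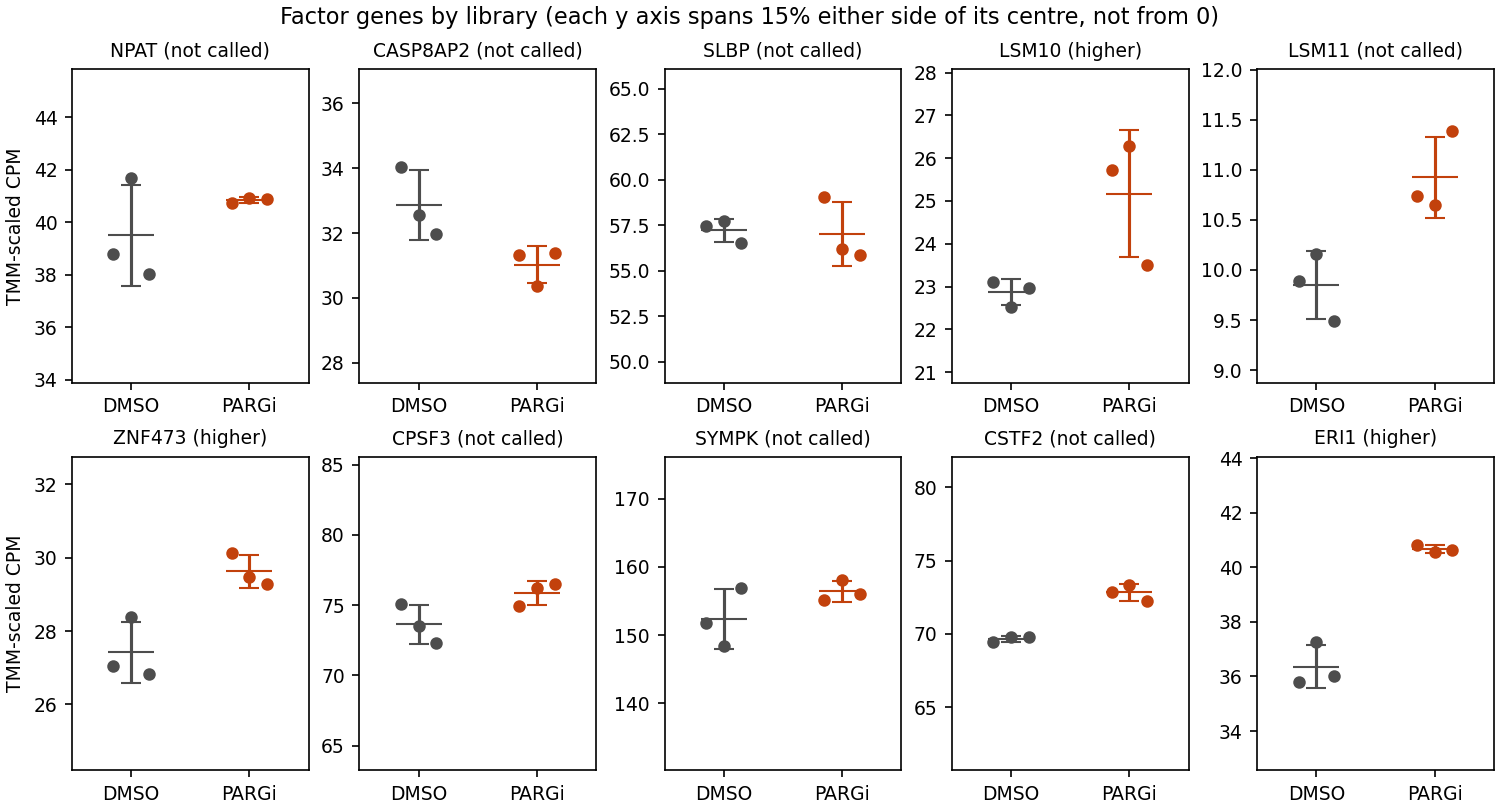
TMM-scaled read counts relative to library size (CPM, y axis, not from 0) of the 10 factor genes in each library, with the mean and SD of 3 libraries as bars, DMSO in grey and PARGi in orange. The 3 PARGi libraries of ERI1 sit between 40.6 and 40.8 CPM, above the highest DMSO library at 37.3 CPM, while those of SLBP lie on both sides of the DMSO libraries.

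The first step is transcription in the histone locus body. NPAT, the coactivator that cyclin E and CDK2 phosphorylate to switch on histone genes at the start of S phase, lies on the minus strand of chromosome 11 (108157215 to 108222642, GENCODE 29). NPAT stood at 38.8, 41.7 and 38 CPM in DMSO replicates 1, 2 and 3 and at 40.7, 40.9 and 40.9 CPM in PARGi. CPM is the read count relative to the total of the library after TMM scaling. The PARGi libraries fell within the DMSO range, so the groups were not apart. NPAT had a log2 fold change of 0.049 (SE 0.036, edgeR adjusted p = 0.357), and its 95% confidence interval ran from -1.71% to 8.92%. The value was 0.089 (adjusted p = 0.0776) without DMSO replicate 2, 0.020 without DMSO replicate 3 and 0.025 with upper-quartile scaling.

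NPAT shares its upstream region with ATM, the gene of a DNA damage kinase that is transcribed in the opposite direction. In GENCODE 29 the outermost starts of both genes are 158 bases apart and their exons overlap by 143 bases on opposite strands. The 250 bases before the NPAT start in RefSeq (GRCh38.p14, chr11:108222639-108222888, minus strand) are shown because they lie upstream of both RefSeq starts. Relative to the outermost ATM start in GENCODE 29 they lie downstream, within that gene. Only their first part lies within the 250 bases before the nearer RefSeq start of ATM (chr11:108222817-108223066, plus strand). Whether they drive either gene was not tested.
NPAT: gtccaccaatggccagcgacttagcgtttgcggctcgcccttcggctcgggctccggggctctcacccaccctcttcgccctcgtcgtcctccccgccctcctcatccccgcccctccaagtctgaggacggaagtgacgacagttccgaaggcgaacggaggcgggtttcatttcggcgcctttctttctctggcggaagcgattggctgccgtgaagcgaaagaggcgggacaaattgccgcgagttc
ATM was at 103 ± 0.492 CPM in DMSO, against 106 ± 2.49 CPM in PARGi (SD, n = 3 each), and it was not called either (log2 fold change 0.030, edgeR adjusted p = 0.456). The ratio of NPAT to ATM was 0.382 ± 0.0177 in DMSO and 0.387 ± 0.00842 in PARGi, and the groups overlapped (p = 0.7 by a two-sided exact permutation test, which cannot go below 0.1 with 3 against 3).

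CASP8AP2 encodes FLASH, which sits in the histone locus body and binds LSM11 to bring in the cleavage complex. The gene is on the plus strand of chromosome 6 (89829894 to 89874436). It stood at 34, 32.6 and 32 CPM in DMSO, against 31.3, 30.4 and 31.4 CPM in PARGi. Every PARGi library was below every DMSO library, by a narrow gap. The log2 fold change of -0.082 (SE 0.037) had an unadjusted p of 0.0354 and did not pass the adjusted threshold (edgeR adjusted p = 0.111). With upper-quartile scaling it was -0.11 and passed as lower (adjusted p = 0.0389), the only one of the 14 alternatives in which it did.

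E2F factors drive many genes at the start of S phase, and the promoters of the factors were searched for the E2F-type words TTTGGCGC, TTTGCCGC, TTTCGCGC and TTTCCCGC on both strands, from 250 bases before to 50 after each RefSeq start. A match was found for CASP8AP2, CPSF3 and CSTF2, 3 of the 8 factors with an entry, and in 3.31% of the 35116 promoters of the table. The table had entries for all factors except ERI1 and ZNF473. The matches lay 149, 218 and 6 bases upstream of the start. None of these 3 genes was called in PARGi. A match is a description of letters and no evidence of binding. The upstream sequences of CASP8AP2 (chr6:89829630-89829879, plus strand) and CPSF3 (chr2:9423404-9423653, plus strand) are shown with the match in capitals.
CASP8AP2: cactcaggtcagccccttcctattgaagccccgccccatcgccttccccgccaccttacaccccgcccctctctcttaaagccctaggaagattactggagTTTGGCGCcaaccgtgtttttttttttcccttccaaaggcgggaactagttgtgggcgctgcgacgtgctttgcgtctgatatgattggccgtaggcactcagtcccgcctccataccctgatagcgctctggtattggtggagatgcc
CPSF3: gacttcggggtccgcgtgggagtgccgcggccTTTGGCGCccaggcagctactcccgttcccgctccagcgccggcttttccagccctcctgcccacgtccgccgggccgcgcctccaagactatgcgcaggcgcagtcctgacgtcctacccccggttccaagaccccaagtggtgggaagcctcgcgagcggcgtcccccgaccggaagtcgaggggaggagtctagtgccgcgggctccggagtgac

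SLBP is the protein that binds the stem-loops printed above and stays with the messenger RNA through export and translation. Its gene is on the minus strand of chromosome 4 (1692800 to 1712555). SLBP stood at 57.5, 57.7 and 56.5 CPM in DMSO, against 59, 56.2 and 55.9 CPM in PARGi. The highest and the lowest library were both PARGi libraries. SLBP had a log2 fold change of -0.0060 (SE 0.030, edgeR adjusted p = 0.917). Its 95% confidence interval runs from -4.67% to 4.02%, and a change of the SLBP transcript within these bounds was not detectable. Its sign turned when DMSO replicate 2, PARGi replicate 2 or PARGi replicate 3 was left out, to 0.00026, 0.0046 and 0.0094 respectively. SLBP is controlled in the cell cycle mainly through its protein, which was not measured here.

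Of 10 genes for factors that modify SLBP or mark it for degradation, 2 rose, 1 fell and 7 were not called. The 30% called is near the 24.3% of all genes. CDK1, the kinase that with cyclin A starts the degradation of SLBP at the end of S phase, rose from 198 ± 3.98 to 226 ± 1.24 CPM (SD, n = 3 each, log2 fold change 0.19, edgeR adjusted p = 4.43e-06). DCAF11, a substrate receptor of a ubiquitin ligase for SLBP, was at 61.2 ± 1.55 CPM in DMSO, against 57.5 ± 2.63 CPM in PARGi (log2 fold change -0.093, edgeR adjusted p = 0.044), and its groups overlapped. Without DMSO replicate 2 only 1 of the 10 genes was called.

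The U7 ribonucleoprotein uses LSM10 and LSM11 in place of the spliceosomal ring members SNRPD1 and SNRPD2. LSM10, on the minus strand of chromosome 1 (36391238 to 36397892), stood at 23.1, 22.5 and 23 CPM in DMSO, against 25.7, 26.3 and 23.5 CPM in PARGi. PARGi replicate 3 lay just above the DMSO libraries and the other two PARGi libraries well above them. LSM10 rose by a log2 fold change of 0.14 (SE 0.044, edgeR adjusted p = 0.0252), or 9.88% with a 95% confidence interval from 3.21% to 17%. The call was lost without DMSO replicate 1 (0.14, adjusted p = 0.0555), DMSO replicate 2 (0.13, 0.0563), PARGi replicate 1 (0.12, 0.102) or PARGi replicate 2 (0.10, 0.163), and with upper-quartile scaling (0.11, 0.0625).

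LSM11, which carries the part that binds FLASH, is on the plus strand of chromosome 5 (157743695 to 157760709). LSM11 stood at 9.89, 10.2 and 9.49 CPM in DMSO, against 10.7, 10.6 and 11.4 CPM in PARGi. The groups did not overlap. The log2 fold change of 0.15 (SE 0.056) was as large as that of LSM10 but less precise, and it missed the threshold (edgeR adjusted p = 0.0511). It passed only without DMSO replicate 2 (0.18, adjusted p = 0.0427).

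Among the ring proteins that these factors replace, SNRPD1 was at 112 ± 3.1 and 113 ± 4.2 CPM and SNRPD2 at 190 ± 2.71 and 198 ± 4.24 CPM in DMSO and PARGi (SD, n = 3 each). Neither was called (edgeR adjusted p = 0.73 for SNRPD1 and 0.101 for SNRPD2). The ratio of LSM10 to SNRPD1 was 0.205 ± 0.00462 in DMSO and 0.223 ± 0.02 in PARGi, and that of LSM11 to SNRPD2 was 0.0519 ± 0.00183 and 0.0553 ± 0.00318. Both ratios overlapped between groups (exact two-sided permutation test, p = 0.3 for each, smallest possible 0.1). Of all 18 genes for Sm ring proteins and their assembly factors, 1 rose, 1 fell and 16 were not called, 11.1% of the list against 24.3% of all genes. PRMT5, the methyltransferase that prepares Sm proteins for assembly, rose by 5.17% (116 ± 2.36 to 122 ± 2.13 CPM, edgeR adjusted p = 0.0481). GEMIN8, a subunit of the SMN complex, fell from 8.46 ± 0.583 to 6.99 ± 0.428 CPM (log2 fold change -0.27, edgeR adjusted p = 0.00526).

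ZNF473 encodes the zinc finger protein ZFP100, which links SLBP on the stem-loop to LSM11 in the U7 particle. The gene is on the plus strand of chromosome 19 (50025714 to 50053414). ZNF473 stood at 27, 28.4 and 26.8 CPM in DMSO, against 30.1, 29.5 and 29.3 CPM in PARGi, without overlap. It rose by a log2 fold change of 0.11 (SE 0.037, edgeR adjusted p = 0.0316), or 8.05% with an interval from 2.4% to 14%. The call did not last: it was lost in 7 of the 14 alternatives. These were DESeq2 (0.11, adjusted p = 0.0572), upper-quartile scaling (0.087, 0.106), and the analyses without DMSO replicate 1 (0.10, 0.113), DMSO replicate 3 (0.095, 0.0991), PARGi replicate 1 (0.10, 0.11), PARGi replicate 2 (0.12, 0.0744) or PARGi replicate 3 (0.12, 0.0635).

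ZNF473 starts 232 bases from VRK3, a kinase gene read in the opposite direction, and 223 bases of their exons overlap. VRK3 was at 32.5 ± 0.583 CPM in DMSO, against 34 ± 1.01 CPM in PARGi and was not called (log2 fold change 0.065, edgeR adjusted p = 0.207). An antisense gene without a symbol (ENSG00000269091) overlaps 245 exonic bases of ZNF473 and was at 0.201 ± 0.053 and 0.208 ± 0.0805 CPM. Whether the authors counted by strand is not given in the sources used here, so reads in these overlaps may not be fully separated.

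**Figure D2:**
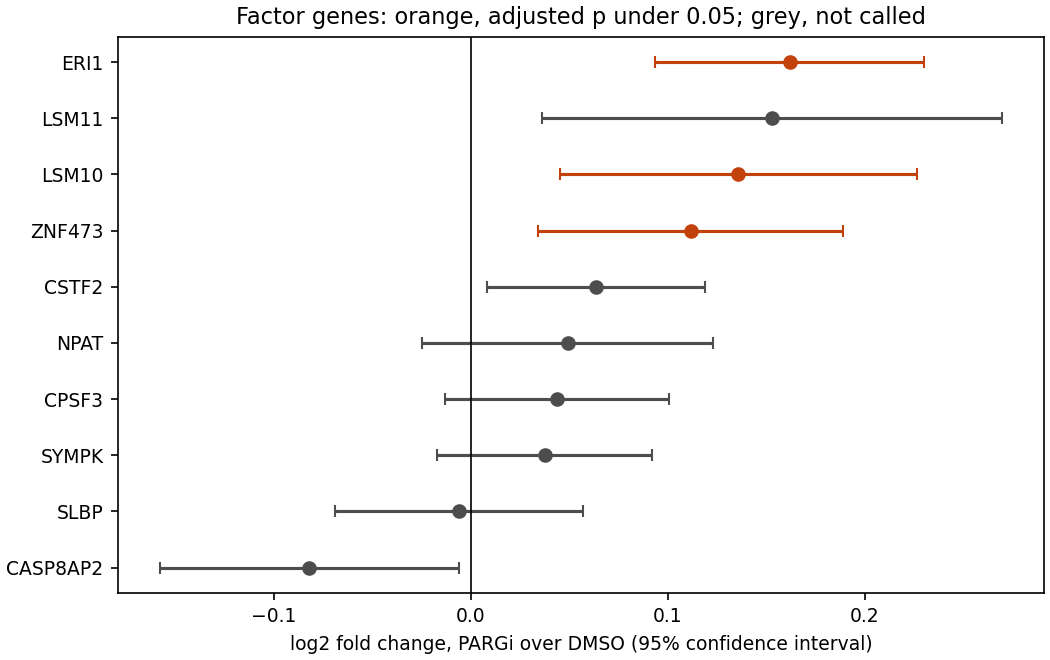
Log2 fold change of PARGi over DMSO (x axis) for the 10 factor genes, with 95% confidence intervals from edgeR and called genes in orange. ERI1 has the highest value at 0.16 with an interval from 0.094 to 0.23, and the interval of SLBP is centred near 0.

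The cut itself is made by the histone cleavage complex, which is built around CPSF3, the endonuclease, with CPSF2 and the scaffold SYMPK. CPSF3 is on the plus strand of chromosome 2 (9423568 to 9473101). CPSF3 stood at 75.1, 73.6 and 72.3 CPM in DMSO, against 74.9, 76.2 and 76.5 CPM in PARGi. Only PARGi replicate 1 fell inside the DMSO range. For CPSF3 the log2 fold change was 0.044 (SE 0.027, edgeR adjusted p = 0.27), with an interval from -0.88% to 7.22%. It was 0.019 with upper-quartile scaling.

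CPSF3 starts 21 bases from ITGB1BP1, a gene for an integrin-binding protein that is read in the opposite direction from the upstream region printed above. ITGB1BP1 rose from 76.8 ± 0.942 to 82.3 ± 2.64 CPM (SD, n = 3 each, log2 fold change 0.10, SE 0.029, edgeR adjusted p = 0.0124). Whether the 2 genes changed by different amounts was not tested. The partner CPSF2 was at 57.8 ± 0.687 CPM in DMSO, against 57.9 ± 0.654 CPM in PARGi (edgeR adjusted p = 0.991), with an interval of the change from -3.99% to 4.26%.

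SYMPK, on the minus strand of chromosome 19 (45815410 to 45863290), stood at 152, 148 and 157 CPM in DMSO, against 155, 158 and 156 CPM in PARGi. All PARGi values lay close to the upper end of the DMSO range, with overlap between the groups. SYMPK had a log2 fold change of 0.038 (SE 0.026, edgeR adjusted p = 0.335). It was 0.019 without DMSO replicate 2, 0.059 (adjusted p = 0.096) without DMSO replicate 3 and 0.013 with upper-quartile scaling. FOXA3, which starts 699 bases from SYMPK on the other strand, was at 0.252 ± 0.0781 and 0.318 ± 0.101 CPM and was not called (edgeR adjusted p = 0.551).

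CSTF2, which encodes the CstF-64 protein of the cleavage stimulation factor, is on the plus strand of chromosome X (100820359 to 100840932). CSTF2 stood at 69.4, 69.8 and 69.8 CPM in DMSO, against 72.9, 73.4 and 72.3 CPM in PARGi. Both groups were tight and did not overlap. The log2 fold change was 0.064 (SE 0.027), with an unadjusted p of 0.0258, and did not pass after adjustment (edgeR adjusted p = 0.0883). It passed in none of the 14 alternatives and was 0.039 with upper-quartile scaling.

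CSTF2T is the intronless copy of CSTF2 and encodes the related protein τCstF-64. It was lower in PARGi, at 51, 47.4 and 50 CPM in DMSO, against 47.2, 44.8 and 46.5 CPM in PARGi (log2 fold change -0.10, SE 0.034, edgeR adjusted p = 0.0337). The fall lost its call without DMSO replicate 1 (-0.080, adjusted p = 0.152), DMSO replicate 3 (-0.093, 0.0619), PARGi replicate 2 (-0.078, 0.183) or PARGi replicate 3 (-0.11, 0.0806), and without a filter on low counts (-0.095, 0.0506). The ratio of CSTF2 to CSTF2T was 1.36, 1.47 and 1.4 in DMSO and 1.54, 1.64 and 1.55 in PARGi, a log2 difference of 0.16 without overlap (exact two-sided permutation test, p = 0.1, the smallest possible). Their sum was 119 ± 1.7 CPM in DMSO, against 119 ± 0.949 CPM in PARGi (exact permutation test, p = 1). The copies are similar in sequence, so reads may be divided between them, and the ratio was chosen after its values were seen.

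Of 18 other genes for cleavage and polyadenylation, CPSF2 and CSTF2T included, 1 rose, 1 fell and 16 were not called, 11.1% of the list against 24.3% of all genes. The riser was CPSF4, the CPSF subunit that helps to bind the poly(A) signal of ordinary messenger RNAs, at 55.6 ± 3.1 CPM in DMSO, against 59.6 ± 0.877 CPM in PARGi (log2 fold change 0.10, edgeR adjusted p = 0.0364). Without PARGi replicate 2 or PARGi replicate 3, 0 of the 18 were called (edgeR).

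ERI1, the exonuclease that binds the stem-loop beside SLBP, trims the cut end and takes part in the decay of histone messenger RNA, had the largest fitted change of the 10 over all 6 libraries. LSM10 was above it without PARGi replicate 3 (0.19 against 0.16), and LSM11 without DMSO replicate 1 (0.155 against 0.149), PARGi replicate 1 (0.164 against 0.159) or PARGi replicate 2 (0.173 against 0.164). It lies on the plus strand of chromosome 8 (9002147 to 9116746). ERI1 stood at 35.8, 37.3 and 36 CPM in DMSO, against 40.8, 40.6 and 40.6 CPM in PARGi. The PARGi libraries lay close together and well above all DMSO libraries. ERI1 rose by a log2 fold change of 0.16 (SE 0.033, edgeR adjusted p = 0.000726), or 11.9% with a 95% confidence interval from 6.72% to 17.3%. In the 14 alternatives the value ran from 0.14 to 0.18, with adjusted p-values from 0.000152 to 0.00703. The change was of ordinary size in these data, since 36.3% of all tested genes moved further in absolute log2 terms.

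Of 14 genes for the cap, export, translation and decay of histone messenger RNA, 1 rose, 1 fell and 12 were not called, 14.3% of the list against 24.3% of all genes. Both called genes encode uridyltransferases that have been linked to the oligouridine tail that starts histone decay. TUT7 rose from 45.2 ± 0.667 to 48.6 ± 0.789 CPM (log2 fold change 0.11, edgeR adjusted p = 0.0141). TUT4 fell from 86.1 ± 1.27 to 81.6 ± 0.789 CPM (log2 fold change -0.078, edgeR adjusted p = 0.0337). With upper-quartile scaling 4 of the 14 were called, all lower, and without PARGi replicate 3 the count was 0.

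Levels of different genes were compared only per length, as CPM per kilobase of merged exons. CSTF2 was highest, at 31.9 ± 0.0929 CPM per kilobase in DMSO (SD, n = 3), followed by SLBP at 28.2 ± 0.309, CPSF3 at 19.5 ± 0.372, LSM10 at 15.3 ± 0.203 and SYMPK at 14.3 ± 0.409 CPM per kilobase. ERI1 (5.69 ± 0.124), NPAT (5.24 ± 0.255), CASP8AP2 (4.02 ± 0.132) and ZNF473 (3.97 ± 0.121) formed a lower tier, and LSM11 was lowest at 1.5 ± 0.0514 CPM per kilobase. Over all 6 libraries the ranges of neighbours in this order overlapped only for CASP8AP2 and ZNF473, which changed places in PARGi. The order depends on the gene model. Against the longest protein-coding transcript, 6 of the 10 genes kept their rank, CPSF3 and LSM10 changed places, and so did CASP8AP2 and ZNF473. By either length, LSM10 stood far above LSM11, although their proteins enter the same ring.

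Transcripts of CCNE1 and CDK2, which encode subunits of the kinase that acts on NPAT, were higher in PARGi. CCNE1, which encodes cyclin E1, stood at 78.9, 78.4 and 77.4 CPM in DMSO, against 94, 93.1 and 93.2 CPM in PARGi (log2 fold change 0.26, SE 0.026, edgeR adjusted p = 8.45e-08). CDK2 stood at 127, 124 and 122 CPM in DMSO, against 142, 142 and 144 CPM in PARGi (log2 fold change 0.20, SE 0.026, edgeR adjusted p = 2.09e-06). CCNE2, which encodes the other cyclin E, was at 27.8 ± 2.47 CPM in DMSO, against 28.9 ± 1.14 CPM in PARGi, with overlap (log2 fold change 0.060, edgeR adjusted p = 0.428). CDKN1A, which encodes the CDK2 inhibitor p21, rose from 116 ± 2.55 to 195 ± 5.47 CPM (log2 fold change 0.74, edgeR adjusted p = 3.72e-15). Of the 13 genes in this list of cyclin E, CDK2 and histone promoter factors, 5 rose, 1 fell and 7 were not called, 46.2% of the list against 24.3% of all genes.

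The G1/S marker genes moved in both directions. In this list of 41 genes, from which SLBP and CASP8AP2 had been taken out, 18 rose, 6 fell and 17 were not called. The share called was 58.5% against 24.3% of all genes, of which 13.2% were higher and 11% lower, and the list's median log2 fold change was 0.055. A call depends on count depth as well as on the size of a change, and the list shares given here were not matched for depth. RRM2, a ribonucleotide reductase subunit, rose by a log2 fold change of 0.28, DSCC1, of a clamp loader, by 0.22, and CDC6, an origin licensing factor, by 0.21, with edgeR adjusted p-values of 3.47e-09, 1.85e-06 and 1.44e-06. The largest absolute change of the list was that of CDCA7, with a log2 fold change of -0.29, and WDR76 (-0.20) and MCM6 (-0.20), a subunit of the replicative helicase, fell too (edgeR adjusted p = 2.77e-05, 0.000388 and 8.70e-06). RNA from a mixed culture cannot tell a change in the share of cells in S phase from a change per cell.

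**Figure D3:**
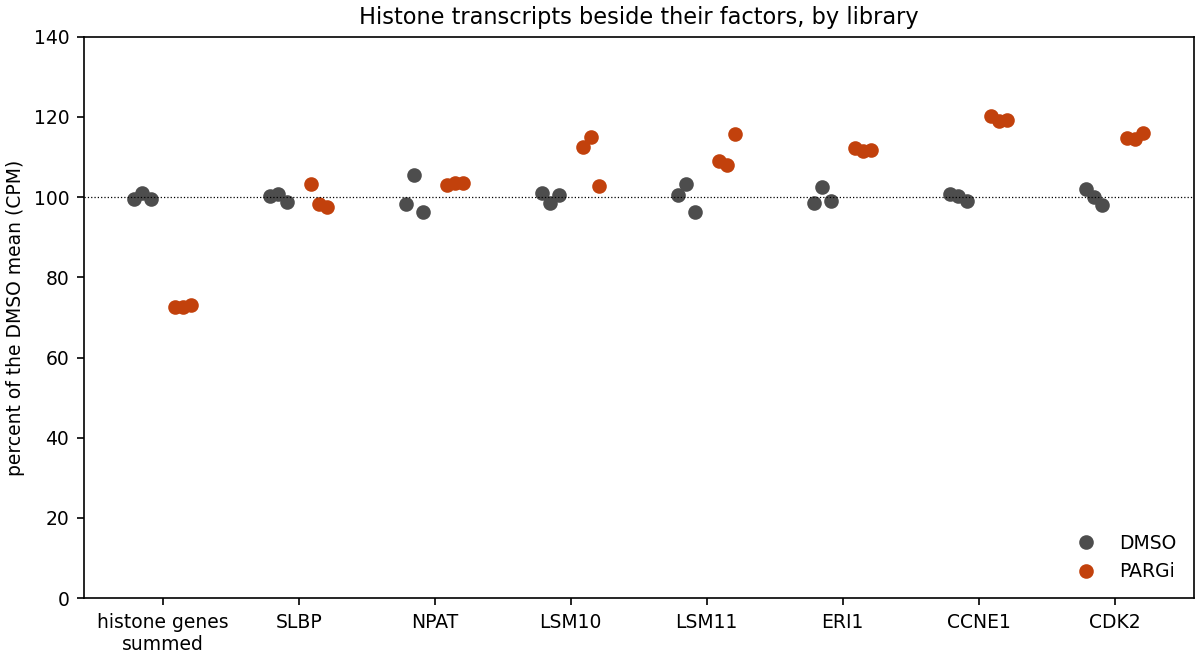
Level in each library as a percent of the DMSO mean (y axis, from 0) for the summed histone genes, 5 of the factor genes and the kinase genes CCNE1 and CDK2, DMSO in grey and PARGi in orange. The histone sum stands at 72.6% to 73.1% in PARGi, while SLBP lies between 97.6% and 103% and CCNE1 between 119% and 120%.

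Counts of the histone genes, whose messenger RNAs are the substrates of the pathway, moved much further than those of the factors. Such counts do not tell the processed form from polyadenylated forms, as described below. Counts summed over 60 replication-dependent histone genes were 238, 241 and 238 CPM in DMSO, against 173, 174 and 175 CPM in PARGi. The PARGi libraries were far below the DMSO libraries, with a difference of -27.2% (log2 difference -0.46, exact two-sided permutation test, p = 0.1, the smallest possible). SLBP did not follow: the ratio of the histone sum to SLBP went from 4.17 ± 0.0375 in DMSO to 3.05 ± 0.1 in PARGi (exact permutation test, p = 0.1, the smallest possible). Of the 28 histone genes with enough counts, 11 fell, 0 rose and 17 were not called (edgeR), 39.3% of the list against 24.3% of all genes. The number that rose was also 0 at an unadjusted p under 0.05, and with DESeq2 size factors or upper-quartile scaling.

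The histone counts came from few genes. H2BC12, H1-2, H2AC6 and H2BC21 made up 71.4% of the sum in DMSO, 44 of the 60 genes had a mean below 1 CPM in DMSO, and 11 were at 0 in all libraries. These 4 genes summed differed by -32.4% (log2 difference -0.56). The other histone genes summed went from 68.4 ± 1.81 CPM to 58.5 ± 0.75 CPM, a difference of -14.5% (log2 difference -0.23), without overlap in either sum (exact permutation test, p = 0.1 for each, the smallest possible). H1-2, a linker histone gene, fell from 35.8 ± 0.553 to 18.1 ± 0.549 CPM, H2AC6 from 22.2 ± 0.481 to 13.7 ± 0.366 CPM and H2BC12 from 92 ± 0.548 to 68 ± 0.477 CPM (SD, n = 3 each, edgeR adjusted p = 1.18e-14, 2.83e-11 and 1.4e-11). Among the genes whose stem-loops are printed above, H2BC21, H2BC5, H4C8 and H3C10 fell as well, with log2 fold changes of -0.40, -0.20, -0.51 and -0.38, and H2AC11 had a value of 0.035 (edgeR adjusted p = 0.701).

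Gene counts do not tell the stem-loop end from a polyadenylated end of the same gene. Among GENCODE 29 transcripts that hold the stem-loop, the longest-ending goes on past it for 1128 bases in H2AC6 and 1729 in H2BC21. The stretch is 1655 bases in H4C8 and 1761 in H2AC11, but only 39 in H2BC5. Reads in those stretches are counted for the gene together with reads of the processed form. Transcripts that lack the stem-loop were not considered for these lengths. Which form fell was not tested. Whether RNA with a poly(A) tail was selected is not reported here, so the share of the processed form in these counts is unknown. Histone genes are also near-identical copies, and how reads shared by several copies were counted is not given in the sources used here. If such reads were dropped, they are missing from the sum as well, so levels of single genes and of the sum are uncertain.

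**Figure D4:**
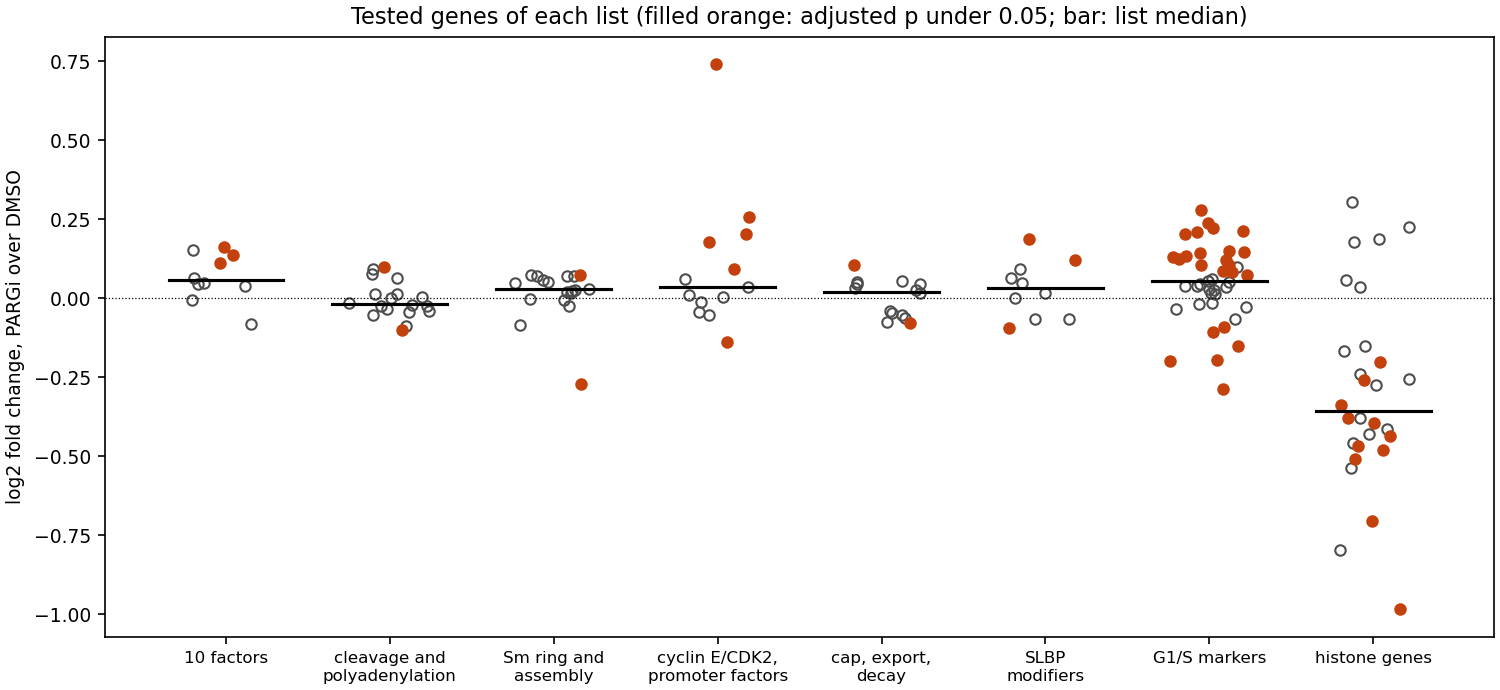
Log2 fold change of PARGi over DMSO (y axis) for the tested genes of the 10 factors and 7 related lists (x axis), with called genes filled in orange and the list median as a bar. The factors lie between -0.082 and 0.16 around a median of 0.057, and the histone genes have a median of -0.36.

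Depth was even between the groups, from 60286931 to 80605145 counts per library, and the TMM factors lay between 0.995 and 1.007. Of the osteosarcoma line markers, 6 of 6 were detected, with COL1A1 between 4128 and 4659 CPM, and RUNX2, COL1A2 and SPARC fell. Of 8 markers of other cell types, CD3E and ALB were at or near 0 and KRT8, an epithelial keratin, was at 158 to 195 CPM. The summed level of those 8 was 164 to 166 CPM in DMSO and 196 to 201 CPM in PARGi, and KRT8 and CDH1 rose while EPCAM was at 3.53 ± 0.236 and 3.02 ± 0.0457 CPM. The part of these shifts in the results above was not tested. The split of all called genes depended on scaling, with 54.5% higher under TMM and 40.5% under upper-quartile scaling, and under upper-quartile scaling 1 of the 10 factors was called higher and 1 lower.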

How the data were processed

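The authors deposited raw read counts per gene, in 1 file for each of 6 libraries, with no header. The submitters' processing notes list cutadapt 1.18, STAR 2.7.3a, SAMtools 1.9, DESeq2, deepTools and the build hg38. The annotation release, the strand setting, filters and the treatment of reads shared by several genes are not given in the sources used here. The files hold 0 rows without a gene identifier. Gene symbols were taken from a name table (60507 of 60708 identifiers) and positions and lengths from GENCODE 29 (58440 identifiers).

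Counts were tested with edgeR 4.0.16 (R 4.3.3): low genes were removed by filterByExpr, libraries scaled by TMM, and treatment tested by glmQLFit and glmQLFTest (two-sided). All 6 libraries entered the fit, p-values were Benjamini-Hochberg adjusted across every gene tested, and the threshold was 0.05. Alternatives were DESeq2 1.42.0, limma 3.58.1 (voom), DESeq2 size factors, upper-quartile scaling, no low-count filter, at least 10 counts in every library, robust dispersions, a replicate block and each library left out. Single values were compared by exact permutation. Standard errors (SE) were derived from each gene's F statistic. Figures used matplotlib 3.10.9. The scripts were tested on simulated counts.

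The factors and the gene lists were chosen with earlier results of these data known. Named always were the 10 factors, CPSF2, ATM, CCNE1, CDK2, RNU7-1 and genes that overlap a factor or start within 1000 bases of it, and of each list up to 3 called genes with the smallest p. CREBBP, E2F3 and CDC25A, the other called genes of the cyclin E list, are not described. CCNE2, CDCA7, WDR76, MCM6, SNRPD1, SNRPD2, C12orf57, the marker genes and the other histone genes were named after their values were seen. H2AC18 and H2AC19 are not analysed here. Some genes of the lists are counted but not reported here by name. Pairs of libraries of the same group differed by a chi-square of 2.28 to 6.1 per degree of freedom, so none duplicated another.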

Additional observations from a re-analysis of the deposited data

How the results depend on the processing

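Each of the 10 factors was refitted in 14 alternatives. ERI1 stayed called in all 14, and NPAT, CPSF3, SYMPK and CSTF2 stayed uncalled in all 14 with values above 0. With upper-quartile scaling, which moved the median log2 fold change of all genes from -0.0070 to -0.032, the factors called were 1 higher and 1 lower: LSM10 was at 0.11 and ZNF473 at 0.087 without a call, and CASP8AP2 was called at -0.11. The histone sum moved to -0.48 on the log2 scale, and 4 of the cap, export and decay genes were called. CPSF2 turned to -0.024 there and to -0.0014 with at least 10 counts in every library. With DESeq2, ZNF473 was at 0.11 without a call, and 1 gene was called in each of the cleavage and polyadenylation list and the Sm list. Without a low-count filter 1 gene was called in each of these and in the cap, export and decay list. The Sm list also had 1 called gene with at least 10 counts in every library. Against the longest protein-coding transcript 6 of 10 ranks were kept.

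Leaving out a single library gave 1 to 3 factors called higher and 0 lower, 3607 to 4848 genes called in all, and values of -0.031 to 0.0094 for SLBP, 0.10 to 0.19 for LSM10, 0.12 to 0.18 for LSM11 and 0.095 to 0.14 for ZNF473. CPSF2 ran from -0.0068 to 0.011. The lists had 0 to 2 calls for cleavage and polyadenylation, 1 to 2 for the Sm list, 0 to 3 for the cap, export and decay list and 1 to 4 for the SLBP list. The cause was not tested. The groups share replicate numbers, but same-numbered libraries did not deviate together (correlations of -0.0031, 0.0016 and -0.025). With the replicate number as a block 4553 genes were called against 4951, and 1 gene in each of the Sm list and the cap, export and decay list.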
